A study of Mus musculus with 7 samples.

Results

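Imprinted genes are transcribed mainly from 1 parental copy, because the egg or the sperm left a DNA methylation mark at a control region of the cluster. The mark is carried through cell division by the maintenance methyltransferase Dnmt1 with Uhrf1, and is shielded from the erasure of the early embryo by the zinc finger protein Zfp57 and its partner Trim28. Many imprinted genes act on growth and placental function, and several paternally expressed ones, such as neuronatin and necdin, are known from neurons. The set described here was 35 known mouse imprinted genes, chosen by name, of 20294 genes in the deposited table; 15 were listed as maternally expressed, 18 as paternally expressed, and 2, Gnas and Inpp5f, as expressed by either parent depending on the transcript. All 35 had a row. The data hold no allele information, so the parental classes are labels from prior knowledge and nothing below measures imprinting itself.

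The libraries came from the mouse embryonic stem cell line E14, kept in 2i, whose kinase inhibitors hold the naive state. All 7 carried the Brn2-RFP GAVPO cassette, in which light switches on Brn2 (Pou3f2), a POU factor of neural progenitors, and all are labelled with an LED power of 300 µW. They differed in the hours of light, 0, 2, 4, 6, 14, 24 and 48 h, with 1 library per time and no library without the cassette. Because no time has a replicate, the p-values below measure only scatter around a line through the 7 libraries. In bulk RNA, fewer cells that express a gene and less RNA per cell cannot be told apart.

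The implied depth was 7.06 to 16.12 M reads. Pou3f2 did not follow the labels in order: in order of time, the values were 77.0, 36.9, 47.3, 96.2, 119, 41.3 and 7.19. The deposited value of a gene behaves as reads divided by the length of its whole genomic span and by library size, so a gene with long introns has a low value. Levels are therefore compared between libraries for 1 gene, and between genes only as reads per kilobase of exon per M reads. GC content also moved with the libraries: the top GC decile of 2459 well expressed genes lay 0.35 below its own mean on the log2 scale at 0 h and 0.51 above it at 48 h.

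Promoter sequences were available for 28 of the 35 genes (RefSeq, GRCm38.p6), each 250 bases before to 50 after the start. They are shown for 4 paternally expressed genes whose window holds the methylation-dependent Zfp57 hexamer TGCCGC on either strand, written in capitals, and for Slc38a4, the member that fell, whose window holds none. The hexamer was found in 9 of the 28 windows nearest the rows used (32.1%), in 6 of 15 paternally and 3 of 11 maternally expressed genes, and in 11.6% of all 32851 promoter windows. The POU octamer ATGCAAAT, also searched on both strands, was in 1 of the 28 windows, that of Asb4, and in 1.74% of all. The median number of CG pairs per window was 17 for the imprinted genes and 7 for all windows. A match is a string of letters and not a measured binding site. In order, the windows lie at chr2:157559828-157560127 (plus strand), chr6:30737800-30738099 (plus), chr2:152686898-152687197 (plus), chr6:58907077-58907376 (minus) and chr15:97055907-97056206 (minus).
Nnat: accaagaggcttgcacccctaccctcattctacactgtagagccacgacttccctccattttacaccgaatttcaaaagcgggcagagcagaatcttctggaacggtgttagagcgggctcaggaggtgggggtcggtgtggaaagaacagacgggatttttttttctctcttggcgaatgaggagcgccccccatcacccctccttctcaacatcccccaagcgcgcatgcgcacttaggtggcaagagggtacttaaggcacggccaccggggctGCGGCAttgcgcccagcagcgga
Mest: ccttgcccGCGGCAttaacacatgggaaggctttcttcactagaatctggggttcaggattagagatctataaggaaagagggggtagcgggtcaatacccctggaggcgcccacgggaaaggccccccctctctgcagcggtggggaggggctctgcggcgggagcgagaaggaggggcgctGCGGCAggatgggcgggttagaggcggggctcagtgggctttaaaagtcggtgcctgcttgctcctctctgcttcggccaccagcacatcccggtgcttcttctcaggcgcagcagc
Mcts2: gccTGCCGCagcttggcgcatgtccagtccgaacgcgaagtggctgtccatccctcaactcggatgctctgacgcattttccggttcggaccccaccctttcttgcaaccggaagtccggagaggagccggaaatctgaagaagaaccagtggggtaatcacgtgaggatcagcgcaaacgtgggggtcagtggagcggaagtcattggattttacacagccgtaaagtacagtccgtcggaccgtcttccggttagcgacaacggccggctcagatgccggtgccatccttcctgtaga
Nap1l5: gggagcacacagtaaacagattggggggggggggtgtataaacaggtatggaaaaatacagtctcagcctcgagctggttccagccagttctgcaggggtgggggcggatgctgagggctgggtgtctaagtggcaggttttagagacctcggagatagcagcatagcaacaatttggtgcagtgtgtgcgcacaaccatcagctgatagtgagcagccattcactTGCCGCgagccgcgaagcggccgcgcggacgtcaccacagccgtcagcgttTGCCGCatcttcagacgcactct
Slc38a4: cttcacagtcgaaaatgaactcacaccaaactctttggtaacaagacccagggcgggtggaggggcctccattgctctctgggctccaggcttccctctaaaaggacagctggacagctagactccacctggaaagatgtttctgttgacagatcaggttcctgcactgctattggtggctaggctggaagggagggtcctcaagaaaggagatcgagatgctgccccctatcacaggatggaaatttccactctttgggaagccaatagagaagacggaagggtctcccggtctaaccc

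The imprinted genes spanned a wide range of levels. Averaged over the libraries, Impact was highest at 107 reads per kilobase of exon per M, followed by Nap1l4 at 81.6, Slc38a4 at 53.6, Gnas at 45.1 and Mest at 43.7. At the other end Kcnq1 stood at 0.0787 and Dcn at 0.0909. The median was 3.29 for the 18 paternally and 1.55 for the 15 maternally expressed genes, and 13 of the 35 lay below 1. Low members included Igf2, the fetal growth factor, at 0.284, and Dlk1, a Notch-related ligand, at 0.194, whereas Igf2r, the receptor that clears Igf2, stood at 8.07.

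Among the paternally expressed genes, 1 fell by the main test and none rose. Slc38a4, an amino acid transporter, had values of 5.47, 5.33, 5.60, 4.51, 1.69, 0.938 and 0.603 in order of time. The 4 early libraries were all above the 3 late ones, with 572 to 4973 reads behind each value. The share of all genes that separate in this way, here and for Cdkn1c and Gnas below, was not counted. The log2 change fitted over the 48 h was -2.39 ± 0.40 (SE; limma adjusted p = 0.041). In that test 4 of 6411 genes (0.0624%) fell and 19 (0.296%) rose. On reads recovered from the values (limma-voom) the change was -3.44 ± 0.55, adjusted p = 0.010, beside 0.808% of 13498 genes called lower, and it was -2.95 with an adjusted p of 0.034 once the GC trend was removed, beside 0.607% of genes called lower. Per kilobase of exon it was -3.49 (limma adjusted p = 0.021), beside 0.239%. The call is narrow: in the test on values it was lost with the GC trend removed (-1.95, adjusted p = 0.088), with quantile normalization (0.053), with no filter on low values (0.207) and with a pseudocount of 5 (0.067). It was also lost without the 2, 4, 14, 24 or 48 h library (adjusted p 0.053 to 0.313), and on reads it was lost without the 48 h library (0.188).

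Impact, an inhibitor of the stress kinase Gcn2, is the most abundant of the set. It had values of 26.2, 21.2, 25.4, 19.4, 20.2, 14.0 and 7.81 in order of time. The 24 and 48 h libraries were the lowest, and the 48 h value was 0.298 of that at 0 h. The fitted change was -1.42 ± 0.35 on values (limma adjusted p = 0.085) and -1.5 ± 0.35 on reads, where it passed (limma-voom adjusted p = 0.044). With the GC trend removed it did not pass (-0.91, adjusted p = 0.157), nor without the 0, 2, 4, 6 or 48 h library (0.051 to 0.538). Zrsr1, a splicing factor gene that arose by retrotransposition, had values of 11.4, 5.73, 7.68, 8.12, 5.06, 4.09 and 4.00. It was highest at 0 h, and its change of -1.26 ± 0.30 did not pass (limma adjusted p = 0.079; 0.052 on reads).

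A second pattern among paternally expressed genes was a high value in the 48 h library alone. Nnat, which encodes neuronatin, a small membrane protein of developing neurons, had values of 0.335, 0.218, 0.236, 0.303, 0.0912, 0.459 and 6.79, from 12, 4, 4, 10, 2, 11 and 264 reads. The first 6 libraries were near the limit of detection and only the last was well above it. The fitted change on reads was 4.20 ± 1.60 (limma-voom adjusted p = 0.152), and -0.33 without the 48 h library. Peg10, a retrotransposon-derived gene needed for the placenta, had values of 1.77, 1.14, 1.39, 1.80, 1.65, 1.60 and 4.79. Its first 6 libraries lay close together, and the fitted change on reads went from 1.29 to 0.04 when the 48 h library was left out. Ndn, which encodes the neuronal growth suppressor necdin, had values of 6.19, 2.31, 3.79, 5.58, 10.7, 4.57 and 16.2. It was high at both 14 and 48 h, with 24 h below 0 h, and its change of 1.66 ± 0.71 on reads did not pass (limma-voom adjusted p = 0.185).

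Counted over the set, 7 of the 32 genes with at least 10 reads in some library had a 48 h value at least 2 times that of every other library (21.9%). The background was 4.5% of 14742 genes. The 7 were Ascl2, Igf2, Magel2, Nnat, Osbpl5, Peg10 and Sgce, and this count was chosen after the values were seen. Igf2 rested on 57 reads at 48 h and at most 8 elsewhere, and Magel2, a neighbour of Ndn, on 53 and at most 19. Sgce rested on 27 reads at 48 h and at most 8 elsewhere. Igf2 and Sgce thus passed the filter of 10 reads only through the 48 h library, which was also the deepest. Their place in the count, before and after the GC removal below, therefore depends on that filter. Removing each library's GC factor left 6 of 32 (18.8%), beside 3.87% of all genes, and these were Igf2, Magel2, Nnat, Peg10, Plagl1 and Sgce, all paternally expressed. The highest library was 48 h for 11 of 18 paternally (61.1%) and 3 of 15 maternally expressed genes (20%). It was so for 22.8% of 17842 genes with any value above 0. This count set no minimum of reads or margin. It includes the paternally expressed Dlk1 and the maternally expressed Dcn, each with 6 reads at 48 h. Mkrn3 had 2.41 at 48 h against 2.37 at 14 h, and Peg3 had 3.24 against 3.11 at 24 h. The difference between the classes was not tested.

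**Figure D1:**
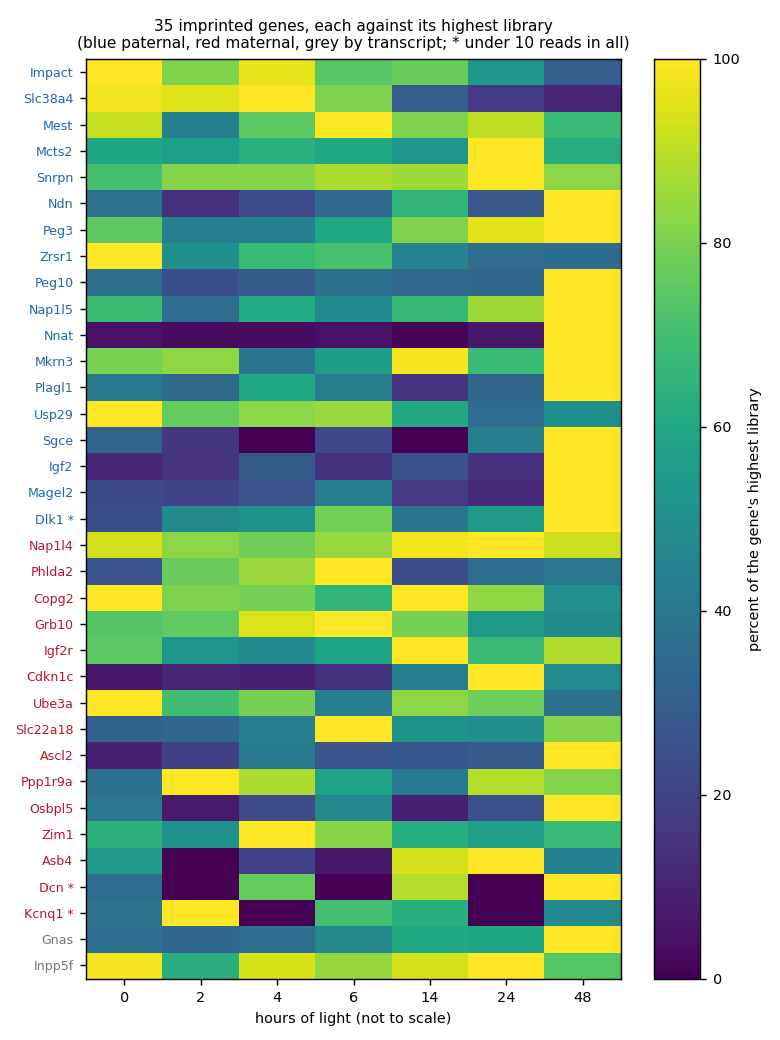
Each row is 1 of the 35 imprinted genes and each column 1 of the 7 libraries; the colour gives the value as a percent of that gene's highest library, with genes ordered by level within each class. The brightest cell lies in the 48 h column for 11 of the 18 paternally expressed genes (blue names). It does so for 3 of the 15 maternally expressed ones (red names). No minimum of reads or margin was set for these counts.

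Some markers of other cell types also stood high in the 48 h library. The summed level of 10 neuronal markers was 78.5 reads per kilobase of exon per M at 0 h and 568 at 48 h, both the extremes of the series. The 12 fibroblast and mesenchyme markers summed to 5.62 at 0 h and 22.9 at 48 h, but 6 of them stayed under 10 reads in every library. Fap was at 0 throughout. These markers did not move together either: from 0 to 48 h Col1a2 went from 24 to 1253 reads, Col1a1 from 15 to 6 and Pdgfra from 43 to 38. Of the 5 tested on reads, 4 had positive changes and 1 a negative one (limma-voom, median 0.78). The sum of the 10 endoderm markers went from 3.43 at 0 h to 11.7 at 48 h, but they did not move together. Foxa2 went from 7 to 305 reads and Gata4 from 54 to 20. Of the 6 endoderm markers tested on reads, 4 had negative changes (limma-voom, median -0.18). The 10 trophoblast markers ranged from 16.7 at 24 h to 33.4 at 4 h. The 11 naive pluripotency markers stayed between 754 and 1430. The 8 formative epiblast markers summed to between 129 and 480, the highest at 14 h, where the deposited value of Pou3f1 was 446, against 18.0 at 48 h. On reads 7 of the 8 had positive changes (median 2.28), beside 47.2% of all genes. In that fit (limma-voom) 4 of the 8 rose, beside 2.22% of all genes. So did 6 of 9 neuronal, 1 of 5 fibroblast and mesenchyme and 1 of 6 endoderm markers tested. None of the 11 naive or 7 trophoblast markers tested rose. What part these cell types have in the imprinted genes' values was not tested.

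The remaining paternally expressed genes varied less or were low. Mest, an enzyme of the hydrolase fold, had values of 12.5, 6.01, 10.3, 13.7, 11.1, 12.4 and 9.21. Only the 2 h library stood low, and the fitted change was the smallest of its class on reads, 0.03 ± 0.41. Snrpn, a core protein of the spliceosome, ranged from 0.857 to 1.21. Peg3, a zinc finger gene, ranged from 1.41 to 3.24 and Mkrn3, a ubiquitin ligase gene, from 0.948 to 2.41. On reads Peg3 did not pass (0.86, limma-voom adjusted p = 0.239). Without the 0 h library it was called higher (1.90, limma-voom adjusted p = 0.039), beside 352 of 13168 genes. Usp29 and Plagl1 stayed below 0.3 in every library. Dlk1 had at most 6 reads in the row used and at most 11 in any of its rows.

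**Figure D2:**
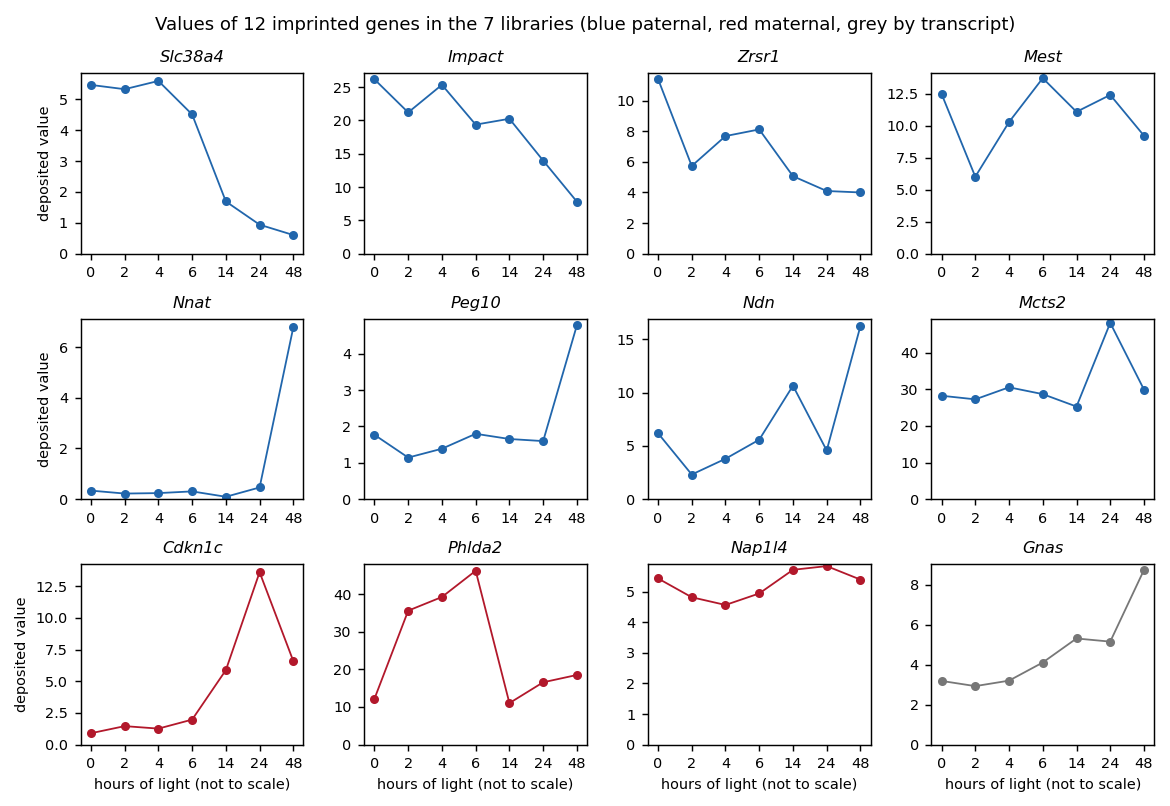
Deposited values (vertical axis, from 0) of 12 imprinted genes in the 7 libraries, 1 point per library, spaced evenly along the horizontal axis rather than to scale. Slc38a4 and Impact end at 0.603 and 7.81, their lowest values, while Nnat and Peg10 reach 6.79 and 4.79 at 48 h alone and Cdkn1c peaks at 13.6 at 24 h.

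Among the maternally expressed genes, Cdkn1c had the largest change. It encodes p57, an inhibitor of cyclin-dependent kinases that halts the cell cycle. Its values were 0.892, 1.45, 1.26, 1.97, 5.87, 13.6 and 6.58, from 24 to 368 reads. The 3 late libraries were all above the 4 early ones, and the 24 h library was at least 2 times every other, which holds for 0.142% of genes, or 0.0681% once each library's GC factor is removed, where Cdkn1c remained. The fitted change was 2.85 ± 0.55 on values, just short of the threshold (limma adjusted p = 0.055), and 3.70 ± 0.75 on reads, where it rose (limma-voom adjusted p = 0.028, beside 2.22% of genes called higher). Per kilobase of exon it also rose (3.08, limma adjusted p = 0.038), beside 0.78%. With the GC trend removed the change on reads was 2.95 ± 0.90 and did not pass (limma-voom adjusted p = 0.116). On reads the call was also lost when the 0, 4 or 48 h library was left out. The changes were then 4.00, 3.48 and 5.25, with limma-voom adjusted p of 0.05, 0.058 and 0.058. GC content of its transcript is 59.4%, and the GC factor removed between 0 and 48 h was 0.83 on the log2 scale.

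Phlda2, a small protein that restrains placental growth, had a transient rather than a steady course. Its values were 12.2, 35.6, 39.3, 46.3, 11, 16.6 and 18.5. The 2, 4 and 6 h libraries stood above all others, and a straight line described it poorly (-0.36 ± 0.77, limma adjusted p = 0.806). Nap1l4, a histone chaperone gene at the edge of the Cdkn1c cluster, was steady at 4.57 to 5.84. Zim1 had the smallest fitted change of the class, -0.03 ± 0.57 on reads, with 0.0864, 0.0688, 0.135, 0.111, 0.0837, 0.0766 and 0.0915.

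Zim1 and the remaining maternally expressed genes were too low for the test on values. On reads, 9 of them were tested and none passed, with limma-voom adjusted p-values from 0.238 to 0.98; Ascl2, Dcn and Kcnq1 were not tested. Igf2r ranged from 0.558 to 1.18, Copg2 from 0.320 to 0.635, Grb10, an adaptor that damps insulin signalling, from 0.286 to 0.601, Slc22a18, a transporter gene, from 0.0555 to 0.178, and Ube3a, the ubiquitin ligase of Angelman syndrome, from 0.146 to 0.390. Ascl2, a trophoblast transcription factor, rested on 4 to 10 reads up to 24 h and 45 at 48 h. Asb4, Dcn, Kcnq1, Osbpl5 and Ppp1r9a stayed below 0.1 in all libraries. Dcn had at most 6 reads in any library and Kcnq1 at most 5, so a few reads set their values. Asb4 had 0 to 21 reads and Osbpl5 2 to 60. Ppp1r9a had 31 to 109 reads, spread over a span of 262 kb.

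Gnas encodes the stimulatory G protein subunit and other products from alternative starts, some maternal, some paternal and some from both copies. Its main row had values of 3.18, 2.92, 3.20, 4.11, 5.31, 5.15 and 8.74. The 3 late libraries all lay above the 4 early ones. The change was 1.22 ± 0.28 on values (limma adjusted p = 0.074) and 1.5 ± 0.34 on reads, where it rose (limma-voom adjusted p = 0.037), but not with the GC trend removed (1.07 ± 0.30, adjusted p = 0.087) or without the 2, 4, 6, 14 or 48 h library (changes of 1.07 to 1.5, adjusted p 0.05 to 0.523). Of the 5 further rows that span 48.9 to 62.4 kb, 4 had 48 to 0 h ratios of 2.5 to 2.9, beside 2.74 for the 16.6-kb main row. The fifth, of 53.8 kb, had 3 reads at 0 h and 45 at 48 h, and a short row of 4.2 kb had 3 and 20. How many reads the rows share was not tested. The other gene of this kind, Inpp5f, ranged from 0.326 to 0.520 with a change of -0.10 ± 0.34 on reads.

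Over the set, the main test covered the 16 members whose mean value reached 1, of which 12 are paternally and 3 maternally expressed. The mean of Nnat reached 1 only through its 48 h value. None rose and 1 fell; 6 had an unadjusted p under 0.05, as did 1381 of all 6411 genes. The median fitted change was 0.28 for the 16 members, 0.28 for the paternally and 0.14 for the maternally expressed ones, and 0.01 for all genes. On reads, 29 members were tested; 2 rose and 2 fell, beside 2.22% and 0.808% of all genes, and the median was 0.36, against -0.06 for all genes. There the classes had medians of 0.36 (15 paternally expressed) and 0.32 (12 maternally expressed). With Slc38a4 and the genes of disputed or tissue-limited imprinting left out, the paternal minus maternal median on values went from 0.14 to -0.91, with 2 maternal genes left. The sign of the difference thus depended on which genes were counted.

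**Figure D3:**
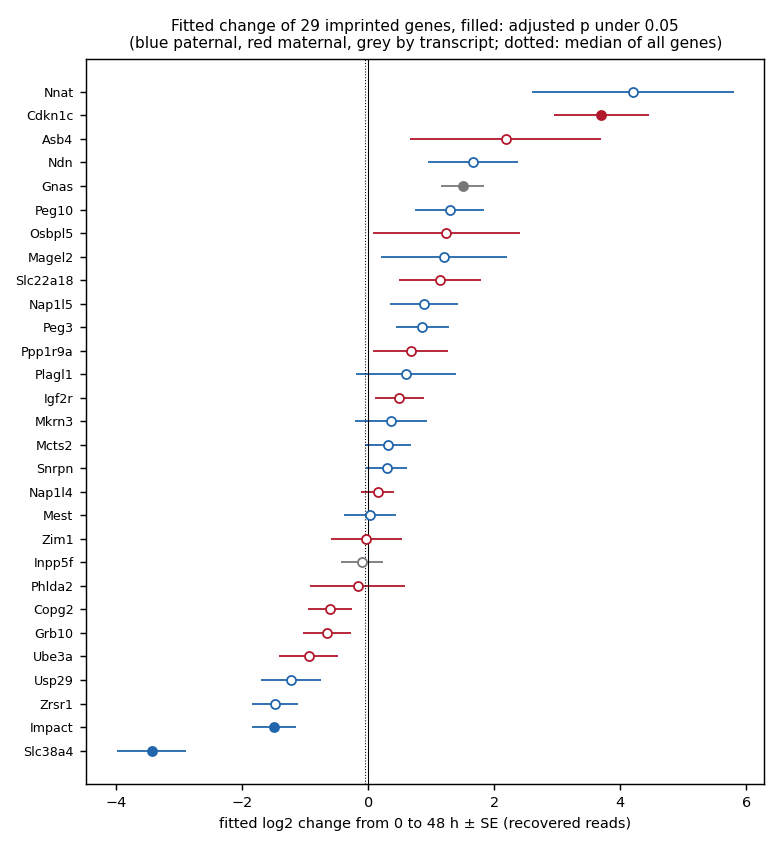
Fitted log2 change from 0 to 48 h on recovered reads for the 29 members tested, with bars for the standard error; filled points passed at an adjusted p under 0.05, and the dotted line is the median of all genes, -0.06. Cdkn1c and Gnas are filled on the right, Slc38a4 and Impact on the left, and paternally and maternally expressed genes are mixed along the axis.

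Set against the 0 h library alone, Phlda2 was the only member at least 2-fold higher at 2, 4 and 6 h, and Cdkn1c the only one at 14 and 24 h. The backgrounds were 1.81%, 1.16%, 2.32%, 2.1% and 2.28% of genes in that order. At least 2-fold lower were Ndn at 2 h (1.21% of genes), no member at 4 or 6 h (0.368% and 0.736%), and Slc38a4 and Zrsr1 at 14 and 24 h (1.95% and 1.65%). At 48 h, 5 of 18 members were at least 2-fold higher on log2(value + 1), beside 8.26% of 7200 genes, and 3 were at least 2-fold lower, beside 4.92%. The 5 were Nnat at 2.54, Cdkn1c at 2.00, Ndn at 1.26, Gnas at 1.22 and Peg10 at 1.06, and the 3 were Slc38a4 at -2.01, Impact at -1.63 and Zrsr1 at -1.31. A gene was counted when its value reached 1 at 0 h or in the later library. Nnat and Cdkn1c, below 1 at 0 h, were counted only through the later library. All these ratios share the 0 h library, and none has a replicate.

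Nnat, Mcts2, Zrsr1 and Nap1l5 each lie inside an intron of another gene, and the last 3 are retrogenes. Per kilobase of exon per M, Nnat went from 0.912 at 24 h to 13.5 at 48 h, while its host Blcap was 20.1 and 25.3. Mcts2, a copy of the translation factor gene Mcts1, lay between 25.3 and 30.6 in 6 libraries and at 48.2 at 24 h, and Mcts1 also had its highest value there, 34.8. The host of Mcts2, the peptidase gene H13, was far lower at 2.65 to 5.43 and was highest at 48 h. Zrsr1 fell below its host Commd1, at 4.09 against 13 at 24 h, after standing above it at 0 h, 11.4 against 8.91. Nap1l5 ranged from 1.39 to 3.89 and its host Herc3 from 3.66 to 7.87, and the histone chaperone gene Nap1l1 was much higher at 177 to 305. None of the 4 host and sister genes tested on values with limma, nor of the 7 tested on reads with limma-voom, passed. In each, 2 had an unadjusted p under 0.05, beside 1381 of 6411 genes on values and 3169 of 13498 on reads. Zrsr2, the X-linked relative of Zrsr1, had a change of -0.84 ± 0.21 (limma adjusted p = 0.085). No source used here states whether counting used strand, so reads of Nnat, Zrsr1 and Nap1l5, which lie on the opposite strand to their hosts, cannot be separated from host reads. Mcts2 lies on the same strand as H13, so strand could not separate their reads in any case. Over all libraries Mcts2 had 2218 reads and H13 had 1577, so the H13 value appears not to count the reads of Mcts2. Blcap, Commd1 and Herc3 had more reads than the genes inside them, so this comparison cannot show the same for them.

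**Figure D4:**
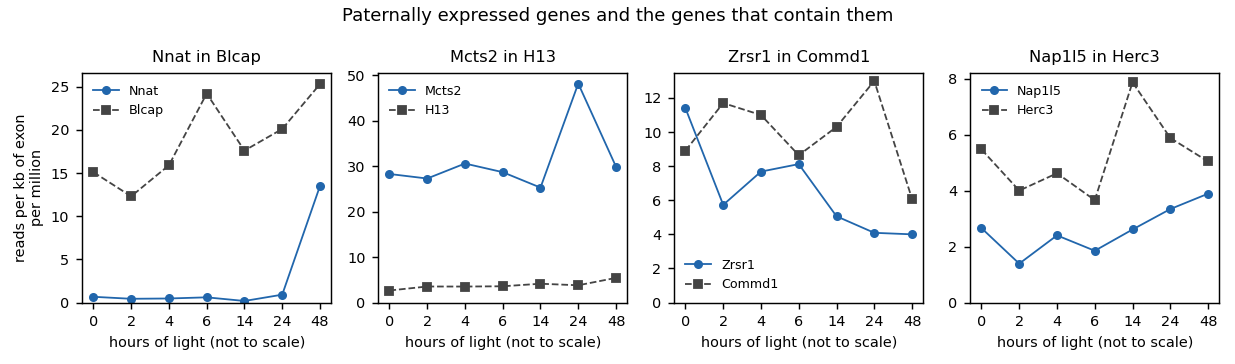
Reads per kilobase of exon per M (vertical axis, from 0) for 4 paternally expressed genes (blue circles) and the gene that contains each (dark squares) in the 7 libraries, spaced evenly rather than to scale. Nnat reaches 13.5 at 48 h and Mcts2 48.2 at 24 h, while Blcap and H13 end at 25.3 and 5.43.

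Of 30 genes that set, keep or erase imprints, 20 could be tested on values and none passed with limma (10 had an unadjusted p under 0.05, as did 1381 of all 6411 genes), and 2 of 29 rose on reads, beside 2.22% of all genes. Dnmt3l, the cofactor needed to set maternal imprints in oocytes, had values of 0.703, 1.04, 1.05, 1.33, 1.30, 3.19 and 4.43, with a change of 2.76 ± 0.45 (limma-voom adjusted p = 0.012, or 0.023 without the GC trend). Dnmt3b, a de novo methyltransferase, changed by 1.75 ± 0.42 (0.047, or 0.107 without the GC trend). The genes that keep imprints did not pass: the changes on values were -0.04 ± 0.37 for Zfp57, 0.30 ± 0.35 for Trim28, 0.15 ± 0.25 for Dnmt1 and 0.54 ± 0.23 for Uhrf1. Larger changes that did not pass were those of Eed, a Polycomb subunit (-1.26 ± 0.36), Rif1 (-1.24 ± 0.36) and Mbd3 (0.84 ± 0.33). Of 48 further imprinted genes, 10 could be tested on values with limma and 26 on reads with limma-voom, and none passed. An unadjusted p under 0.05 was seen for 3 and 7 of them, beside 1381 of 6411 and 3169 of 13498 of all genes. With the GC trend removed from the reads, Calcr, the calcitonin receptor gene, was called higher (3.39, limma-voom adjusted p = 0.035, beside 1.75% of genes).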

How the data were processed

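Messenger RNA libraries of 7 time points were analysed, 1 per time. The submitters' processing notes name Bowtie2 and the mm9 build; how reads were counted, and with what strand setting, no source used here states. The deposited table holds 1 number for every RefSeq transcript in each library; its header gives no unit (other). Multiplied by genomic span and an implied depth, 80.0% to 81.1% of the deposited values worth 2 to 20 reads came within 0.1 of whole reads (20% by chance; 21.2% to 21.9% with exon length), so approximate reads were recovered. In 97 of 225 same-strand nested pairs the inner gene had over 1.2 times the reads of its host, so intron reads appear not to be counted. Spans, GC content and names came from GRCm38 annotation. Where a gene had several rows (14 of 35 members, 63 rows in all), the row of highest mean was used.

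Trends were tested with limma 3.58.1 in R 4.3.3 on log2(value + 1) against log2(hours + 1), 5 residual degrees of freedom, for genes of mean at least 1, with Benjamini-Hochberg adjustment over all 6411 genes and a threshold of 0.05. The change is the fitted one from 0 to 48 h. Recovered reads (10 or more in at least 3 libraries) were fitted with limma-voom over 13498 genes. The GC trend was a spline with 5 degrees of freedom. Both fits were tested on simulated data. The members and lists were chosen with earlier results of these data known. Named in full were members of mean at least 5, members called, and the largest and smallest change per class, except that Mcts2 and Nap1l4 were given by range. The fit per kilobase of exon, the leave-one-out fits on reads and the GC correction of the 48 h count were added after seeing the data. Intervals would cover counting error only, and none is given.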

Additional observations from a re-analysis of the deposited data

How the results depend on the processing

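No paired analysis was possible because each time point has 1 library, so the times share fewer than 2 replicate numbers. With 1 library per time, no result has a replicate check, and low members rest on few reads. The count of all genes called higher, 19 in the main test, was 1 with quantile normalization, 0 without a filter, with a pseudocount of 5 or with the GC trend removed, 36 with a pseudocount of 0.1, 162 with time in hours, 43 with time as rank, 299 on reads, 236 on reads without the GC trend and 88 per kilobase of exon. The count called lower, 4, was 0 with quantile normalization, without a filter, with a pseudocount of 5 or with the GC trend removed, 1 at a mean of at least 5, 7 with a pseudocount of 0.1, 28 with time in hours, 12 with time as rank, 26 for 0 to 6 h against 14 to 48 h, 109 on reads, 82 on reads without the GC trend and 27 per kilobase of exon. Leaving out 1 library gave 1 to 54 higher and 0 to 25 lower. With the GC trend removed, 1171 genes had an unadjusted p under 0.05.

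Of the imprinted genes, 0 rose in the main test, against 1 with a pseudocount of 0.1, time as rank, the split at 6 h or per kilobase of exon, 3 with time in hours and 2 on reads. The 1 that fell became 0 with quantile normalization, no filter, a mean of at least 5, a pseudocount of 5 or the GC trend removed, and 2 with time in hours or on reads. Leaving out 1 library gave 0 to 1. On reads, the 2 higher and 2 lower became 0 and 1 without the GC trend, and 0 to 2 each when 1 library was left out. The paternal minus maternal median, 0.14, was -0.91 with the narrow classes. No called result changed sign. The causes were not tested.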
